A study of Mus musculus with 17 samples.

Results

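Wnt ligands, their receptors and antagonists, and the genes that carry the signal inside the cell were examined in the mRNA of 6 mouse hematopoietic stem and progenitor populations. The genes were chosen by name: every Wnt, Frizzled (Fzd), Dkk and Sfrp gene, the co-receptors Lrp5 and Lrp6, and Ctnnb1, Axin1, Axin2, Lef1, Tcf7, Tcf7l1 and Tcf7l2. Of 46 such names, 45 were found among the 28090 gene names of the array, comprising 19 Wnt, 10 Fzd, 2 Lrp, 4 Dkk and 4 Sfrp genes and 6 intracellular genes. They were read by 63 probes, and each of the 16 genes with several probes was represented by the probe with the highest mean over all arrays. Tcf7l1 was not found under its own name.

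All populations came from the bone marrow of female C57Bl/6 mice aged 6 to 8 weeks, with no treatment or engineered allele stated, and 10 to 20 mice were pooled for each replicate. Marrow was depleted of lineage-positive cells and enriched for c-kit+ cells. The HSC subsets, c-kit+ Sca-1+ in gate, were long-term hematopoietic stem cells (LT-HSC, CD34- FLT3-, 2 arrays), short-term hematopoietic stem cells (ST-HSC, CD34+ FLT3-, 3 arrays) and multipotent progenitors (MPP, CD34+ FLT3+, 3 arrays), and were isolated in the same sort. The myeloid populations, c-kit+ Sca-1- in gate, were isolated in a separate sort and comprised common myeloid progenitors (CMP, intermediate CD34 and FcRγ, 3 arrays), granulocyte and monocyte progenitors (GMP, positive for both, 3 arrays) and megakaryocyte and erythroid progenitors (MEP, negative for both, 3 arrays). The labels describe 1 of the LT-HSC samples as pooled from replicates 2 and 3, and leave 1 sample per population without a number. Values by array are given below in the order pool and unnumbered for LT-HSC, replicates 2 and 3 and unnumbered for ST-HSC and MPP, and unnumbered and replicates 1 and 2 for CMP, GMP and MEP. Whether replicates came from separate sorts was not stated, so the p-values measure the spread between these arrays.

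Markers of the labelled cells were checked first. All 7 HSC markers were higher in HSC subsets than in myeloid populations, all 4 early lymphoid markers were higher in MPP than in ST-HSC, and all 6 GMP and all 5 MEP markers differed between GMP and MEP in the direction of their names. LT-HSC was not distinguished by the HSC list, as none of the 7 HSC markers was called in LT-HSC against the other HSC subsets. All 5 MEP markers, however, were called higher in LT-HSC in that comparison. No list was made for CMP. Of the genes behind the gates, Cd34 read 14.96 ± 0.20 (SD, n = 2) in LT-HSC, gated as CD34-, against 15.88 in ST-HSC and 16.64 in MPP (difference -1.30, adjusted p = 0.102), and Flt3 read 8.24 ± 0.93 (SD, n = 2) in LT-HSC, gated as FLT3-, against 6.86 in ST-HSC and 9.93 in MPP. Markers of other cells were also called higher in HSC subsets than in myeloid populations, namely 7 of 7 for T cells, 4 of 6 for B cells, 4 of 6 for mature neutrophils, 2 of 5 for mature erythroid cells, 4 of 5 for endothelium and 3 of 7 for stroma and osteoblasts, and their part in the differences below was not tested unless stated. Arrays were scanned on 4 days. Day 1 held 6 arrays of the myeloid sort and day 4 held 6 arrays of the HSC sort, whereas day 2 (MPP, CMP and GMP) and day 3 (ST-HSC and MEP) held 5 arrays of both sorts. Day and sort therefore cannot be told apart on days 1 and 4, and differences between the sorts are given with and without scanning day in the fit. Between 41.4% and 70.1% of spots were well above background per array. The lowest share and the dimmest signal (a 75th percentile of 53.1, against 243 to 534 on the other 16 arrays) belonged to the unnumbered LT-HSC array.

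Wnt proteins are secreted lipid-modified ligands that bind Frizzled receptors together with the co-receptors Lrp5 or Lrp6. In the canonical branch, binding halts the destruction of β-catenin, the product of Ctnnb1, by a complex built on the scaffolds Axin1 and Axin2, and β-catenin then acts with the DNA-binding factors of the Tcf and Lef family. Sfrp proteins bind Wnt ligands outside the cell, and Dkk proteins bind the Lrp co-receptors. In bone marrow the pathway has long been studied for its part in the maintenance of stem cells and in lymphoid development.

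The values below are readings of single 60-base probes, so the sequences behind the 6 genes with the smallest F-test p over the populations are shown first. Each line gives the first 30 of the 60 bases, 5′ to 3′, in lower case. Positions are those of the whole probe in mm9.
Wnt10a (chr1:74850633-74850692): tttcacttaacagatatttatttttgcgct
Tcf7 (chr11:52066114-52066173): ttttttcattctcgctgtagatagcctgaa
Sfrp4 (chr13:19724488-19724547): cacagttgtctgtgtgcatactgtgtaaga
Tcf7l2 (chr19:56007586-56007645): gatttgtatgtagttttaatgtcacctata
Fzd1 (chr5:4754003-4754062): caaatgccgatacatacataggacctaaat
Fzd6 (chr15:38869107-38869166): ggccgagctgtcgattccccttttaagtgt

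A gene was counted as detected in a population if its probe was well above background on every array of that population. Under this criterion the 45 genes gave 21 detected in MPP, 18 in ST-HSC and 14 in LT-HSC, and among the myeloid populations 15 for CMP, 13 for GMP and 10 for MEP. The corresponding shares were 46.7%, 40.0%, 31.1%, 33.3%, 28.9% and 22.2%, below the shares of all 28090 genes in the same populations, which were 57.2%, 54.4%, 43.7%, 51.8%, 48.2% and 45.7%. The 7 genes detected in all 6 populations were the ligands Wnt6 and Wnt7b, the receptors Fzd7 and Lrp5, and the intracellular genes Ctnnb1, Axin1 and Tcf7l2. In all, 23 genes were detected in at least 1 population. The LT-HSC count was 23 without the dim unnumbered array.

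The other 22 genes were not detected in any population under the same criterion. Dkk2, Dkk4, Fzd3, Wnt2b, Wnt5a, Wnt16 and Axin2 reached a signal well above background on none of the 17 arrays. Dkk1, Wnt3, Wnt3a, Wnt8a and Wnt9a were above background on 1 array each, Dkk3, Fzd2 and Wnt2 on 2, Sfrp2, Wnt4 and Wnt7a on 3, Fzd10 and Wnt8b on 4, Sfrp1 on 5 and Lef1 on 6. Apart from Lef1 and Sfrp1, these single readings came from ST-HSC and MPP arrays only.

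**Figure D1:**
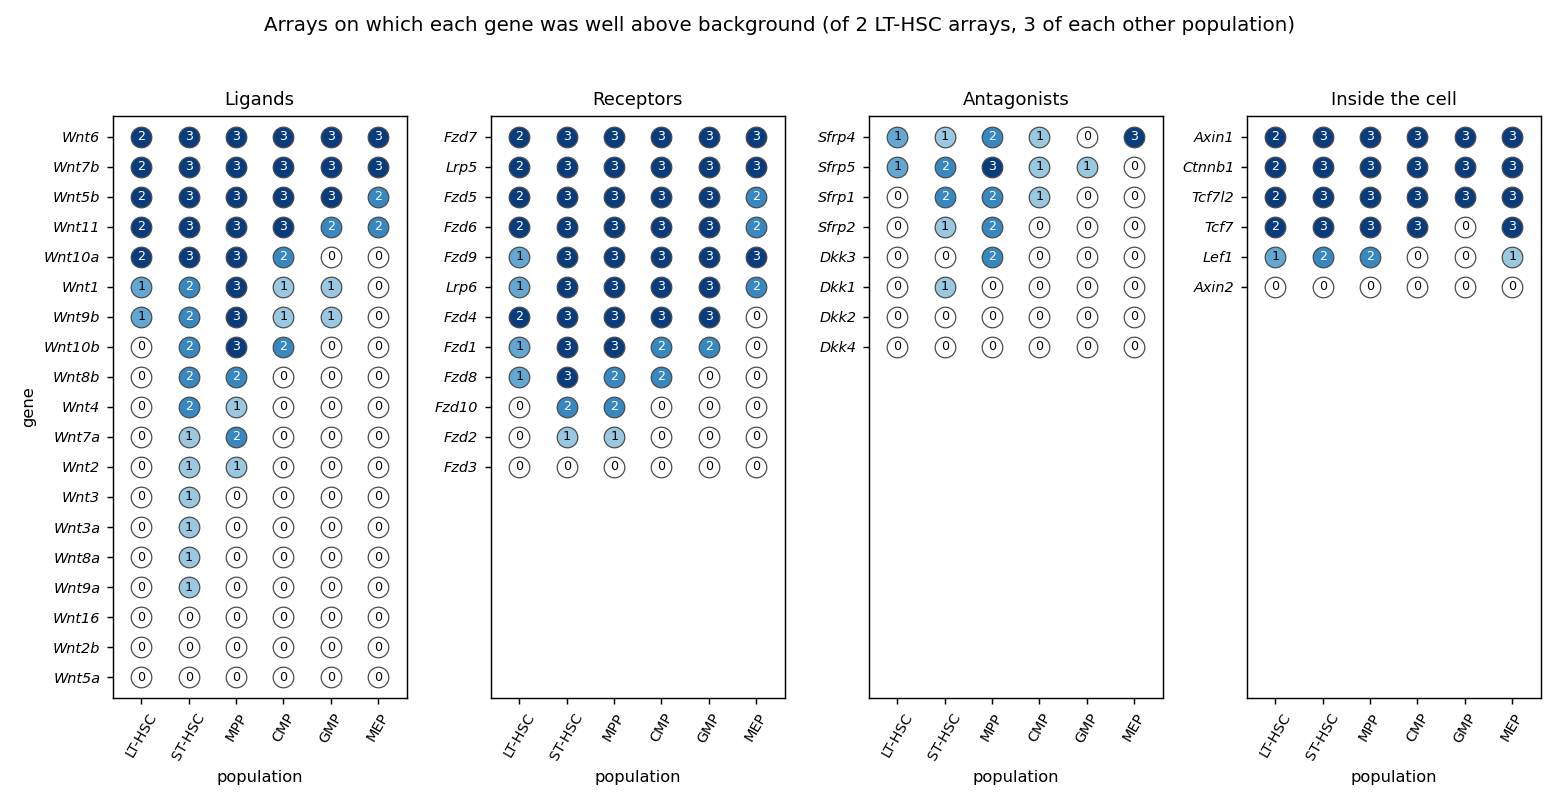
Number of arrays (in each circle) on which each of the 45 genes was well above background, by population, with 2 LT-HSC arrays and 3 arrays of each other population and darker circles for a larger share. Wnt6, Wnt7b, Fzd7, Lrp5, Axin1, Ctnnb1 and Tcf7l2 fill every column, whereas 7 genes were above background on no array.

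The number of genes above background differed between arrays along with the detection limit of the array. HSC subset arrays had between 14 and 32 of the 45 genes above background (median 26.5, n = 8), and myeloid arrays had between 12 and 20 (median 15, n = 9). The lowest normalized log2 value called well above background was 2.45 to 2.71 on the ST-HSC and MPP arrays of day 4, 3.58 to 3.90 on the MPP and ST-HSC arrays of days 2 and 3, 4.09 and 5.86 on the LT-HSC arrays, and 3.61 to 4.79 on the myeloid arrays. With the highest of these limits applied to every array, HSC subset arrays had 9 to 14 genes (median 11.5) and myeloid arrays 4 to 11 (median 7). The order of the populations was not the same under this limit, as LT-HSC then had the most genes detected on every array (12, against 9 in MPP and 8 in ST-HSC) and MEP the most of the myeloid populations (7, against 5 in CMP and 3 in GMP). The ranges overlapped under both limits, and no test was made of these sums over chosen genes.

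Of the 45 genes, 17 (37.8%) passed the F-test over the 6 populations at an adjusted p under 0.05, close to the 40.2% of all genes tested. HSC subsets and myeloid populations differed in 17 of the 45 genes, with 14 (31.1%) higher in HSC subsets, against 21.7% of all genes, and 3 (6.67%) lower, against 19.1%. The median difference was 0.33 on the log2 scale over the 45 genes and 0.04 over all genes. Between LT-HSC and the mean of ST-HSC and MPP, 2 genes (4.44%) were higher and 1 (2.22%) was lower in LT-HSC, against 5.53% and 2.45% of all genes. Between MPP and ST-HSC, 1 gene was higher and 1 lower in MPP (2.22% each), against 1.48% and 1.20% of all genes. Between GMP and MEP, 3 genes (6.67%) were higher and 5 (11.1%) lower in GMP, against 10.5% and 8.51% of all genes. Counted in either direction, the shares of the 45 genes called were 37.8%, 6.67%, 4.44% and 17.8% in these 4 comparisons, against 40.7%, 7.99%, 2.68% and 19.0% of all genes. In sorted bulk samples, fewer cells that express a gene and less RNA per cell cannot be told apart.

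Among the ligands, Wnt10a stood apart in LT-HSC. Its normalized log2 intensity was 11.70 and 10.44 on the LT-HSC arrays, 4.24, 2.67 and 5.84 on the ST-HSC arrays, 5.39, 4.42 and 5.33 on the MPP arrays and 3.64, 4.48 and 4.08 on the CMP arrays. On the GMP arrays it read 1.71, 1.73 and 1.69, and on the MEP arrays 1.72, 1.70 and 4.08, none of them well above background. Both LT-HSC arrays lay above all 15 others, the highest of which read 5.84. LT-HSC exceeded the mean of ST-HSC and MPP by 6.42 ± 0.74 (SE) on the log2 scale, an 85.9-fold difference (limma, adjusted p = 0.000178). It was 5.79 without the pooled LT-HSC array, 7.05 without the unnumbered one, 4.07 with normexp background correction and 4.95 in the authors' table, and was called in each. On the arrays of day 4 alone the difference was 6.89, with 2 LT-HSC arrays and 4 ST-HSC and MPP arrays. HSC subsets exceeded myeloid populations by 4.03 ± 0.45 (SE, adjusted p = 1.21e-05), and by 5.46 ± 0.84 (SE, adjusted p = 0.00283) with scanning day in the fit. Since Wnt10a was above background on 8 of 8 HSC arrays but 2 of 9 myeloid arrays, both of CMP, these differences rest on GMP and MEP values below the detection limit and their size is not measured. Without both LT-HSC arrays the difference was 1.89 (adjusted p = 0.00832). The LT-HSC arrays were a slide of their own, so that slide and population cannot be told apart for them.

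The erythroid and megakaryocytic markers also moved with the LT-HSC comparison. All 5 MEP markers were higher in LT-HSC than in ST-HSC and MPP, by between 1.28 for Gfi1b and 4.58 for Car1, and their summed log2 intensity was 14.18 to 14.93 in LT-HSC, 12.77 to 13.19 in ST-HSC, 11.11 to 11.40 in MPP and 16.16 to 16.29 in MEP, with all 5 above background on every array. Wnt10a was above background on none of the 3 MEP arrays, and the part of these markers in the Wnt10a difference was not tested. Of the 7 stromal and osteoblast markers, none was called in LT-HSC, and Col1a1, Col3a1 and Pdgfra were above background on neither LT-HSC array, with a summed level of 11.19 to 11.59 in LT-HSC and 11.39 to 12.49 in ST-HSC and MPP. Of the 5 endothelial markers, Vwf and Cdh5 were called higher in LT-HSC, Vwf by 1.86 and Cdh5 by 0.73, although Cdh5 was above background on neither LT-HSC array. The summed endothelial level was 12.28 to 12.39 in LT-HSC, 12.20 to 12.27 in ST-HSC and 11.34 to 11.52 in MPP, and its part in the Wnt10a difference was not tested.

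Wnt10a lies beside Wnt6 in the genome, with 19.2 kb between their probes (chromosome 1, 74831361 to 74831426 for Wnt6 in mm9). The neighbours did not share their pattern. Wnt6 was above background on all 17 arrays, at 6.87 ± 0.92 (SD, n = 2) for LT-HSC, 6.39 ± 0.47 (SD, n = 3) for ST-HSC, 7.11 ± 0.55 (SD, n = 3) for MPP, 5.80 ± 0.41 (SD, n = 3) for CMP, 5.81 ± 0.08 (SD, n = 3) for GMP and 5.86 ± 0.28 (SD, n = 3) for MEP. Its difference between LT-HSC and the other HSC subsets was 0.12, against 6.42 for Wnt10a. The probes of Wnt6 disagreed, as its second, dimmer probe, above background on 11 arrays, gave -2.08 (adjusted p = 0.0338) in a fit of single probes. For GMP minus MEP that probe gave 1.72 (adjusted p = 0.0398). Another 3 pairs of these genes were close neighbours: Wnt10b and Wnt1 (21.1 kb, chromosome 15), Wnt3a and Wnt9a (82.8 kb, chromosome 11) and Wnt9b and Wnt3 (90.1 kb, chromosome 11).

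Wnt10b, the closest paralog of Wnt10a, was less regular. It was above background on no LT-HSC, GMP or MEP array, on 2 of 3 ST-HSC and CMP arrays and on all 3 MPP arrays. Its values spread widely within populations, at 4.06 ± 0.85 (SD, n = 2) for LT-HSC, 3.99 ± 1.55 (SD, n = 3) for ST-HSC, 4.80 ± 1.78 (SD, n = 3) for MPP, 4.68 ± 1.39 (SD, n = 3) for CMP, 2.14 ± 0.53 (SD, n = 3) for GMP and 2.97 ± 1.27 (SD, n = 3) for MEP. It was not called in any of the 4 comparisons. With scanning day in the fit, HSC subsets exceeded myeloid populations by 3.84 ± 0.89 (SE, adjusted p = 0.0191), a difference whose size is not measured, since 5 of 8 HSC and 2 of 9 myeloid arrays were above background.

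Wnt7b and Wnt11 were read in nearly all arrays and were called in no comparison with 1 mean per population. Wnt7b, a ligand of the canonical branch, was above background on all 17 arrays and its population means ran from 5.52 ± 0.22 (SD, n = 3) for CMP to 6.29 ± 0.38 (SD, n = 2) for LT-HSC, with 5.56 ± 0.39 for ST-HSC, 5.70 ± 0.28 for MPP, 5.79 ± 0.16 for GMP and 5.58 ± 0.31 for MEP (SD, n = 3 each). Wnt11, a ligand known for β-catenin-independent signalling, was above background on 15 arrays, at 5.74 ± 0.85 (SD, n = 2) for LT-HSC, 4.84 ± 0.31 for ST-HSC, 4.89 ± 1.01 for MPP, 5.13 ± 0.19 for CMP, 5.05 ± 0.34 for GMP and 5.06 ± 0.20 for MEP (SD, n = 3 each). With scanning day in the fit, Wnt11 was called higher in LT-HSC than in the other HSC subsets, by 1.23 ± 0.34 (SE, adjusted p = 0.0377). Neither gene passed the F-test with 1 mean per population (adjusted p = 0.211 for Wnt7b and 0.633 for Wnt11). Wnt5b, above background on 16 arrays, was at 5.90 ± 0.31 (SD, n = 2) for LT-HSC, 5.51 ± 0.55 for ST-HSC, 6.03 ± 0.25 for MPP, 4.79 ± 0.16 for CMP, 5.13 ± 0.33 for GMP and 5.10 ± 0.50 for MEP (SD, n = 3 each).

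Wnt1 and Wnt9b moved with the scanning day. Wnt1 read 4.65 to 5.94 on the 6 arrays of day 4, all of HSC subsets, and 2.73 to 4.05 on the other 11 arrays, whichever population they held. The unnumbered ST-HSC array of day 3 read 2.74, below the MEP array of the same day at 3.13. By population its means were 4.81 ± 0.23 (SD, n = 2) for LT-HSC, 4.67 ± 1.70 for ST-HSC, 4.97 ± 0.80 for MPP, 3.25 ± 0.60 for CMP, 3.39 ± 0.46 for GMP and 3.35 ± 0.24 for MEP (SD, n = 3 each). Wnt9b likewise read 4.93 to 5.59 on day 4 and 1.77 to 4.0 on the other days, with means of 5.11 ± 0.25 (SD, n = 2) for LT-HSC, 4.71 ± 1.29 for ST-HSC, 4.91 ± 1.07 for MPP, 3.20 ± 0.53 for CMP, 2.98 ± 1.12 for GMP and 3.04 ± 0.86 for MEP (SD, n = 3 each). The groups of HSC and myeloid arrays overlapped in both genes.

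The differences between HSC subsets and myeloid populations called for these ligands were 1.49 ± 0.40 (SE, adjusted p = 0.00948) for Wnt1, 1.84 ± 0.44 (SE, adjusted p = 0.00468) for Wnt9b, 0.97 ± 0.22 (SE, adjusted p = 0.00326) for Wnt6 and 0.81 ± 0.18 (SE, adjusted p = 0.00296) for Wnt5b. With scanning day in the fit they were -0.27 ± 0.22 (SE) for Wnt1, -0.53 ± 0.42 (SE) for Wnt9b, 0.07 ± 0.36 (SE) for Wnt6 and 0.51 ± 0.31 (SE) for Wnt5b, and none passed (adjusted p = 0.483, 0.481, 0.940 and 0.334). In a fit of single probes the second probe of Wnt6 gave -0.34 (adjusted p = 0.429) and that of Wnt5b -0.62 (adjusted p = 0.355). With the mean of all probes of a gene the differences were 0.31 (adjusted p = 0.204) for Wnt6 and 0.10 (adjusted p = 0.816) for Wnt5b. Wnt2 was called 0.57 ± 0.14 (SE, adjusted p = 0.00578) higher in HSC subsets, but was above background on 2 of 8 HSC arrays and on none of 9 myeloid arrays, and the signal lay below the detection limits, so no fold is given.

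**Figure D2:**
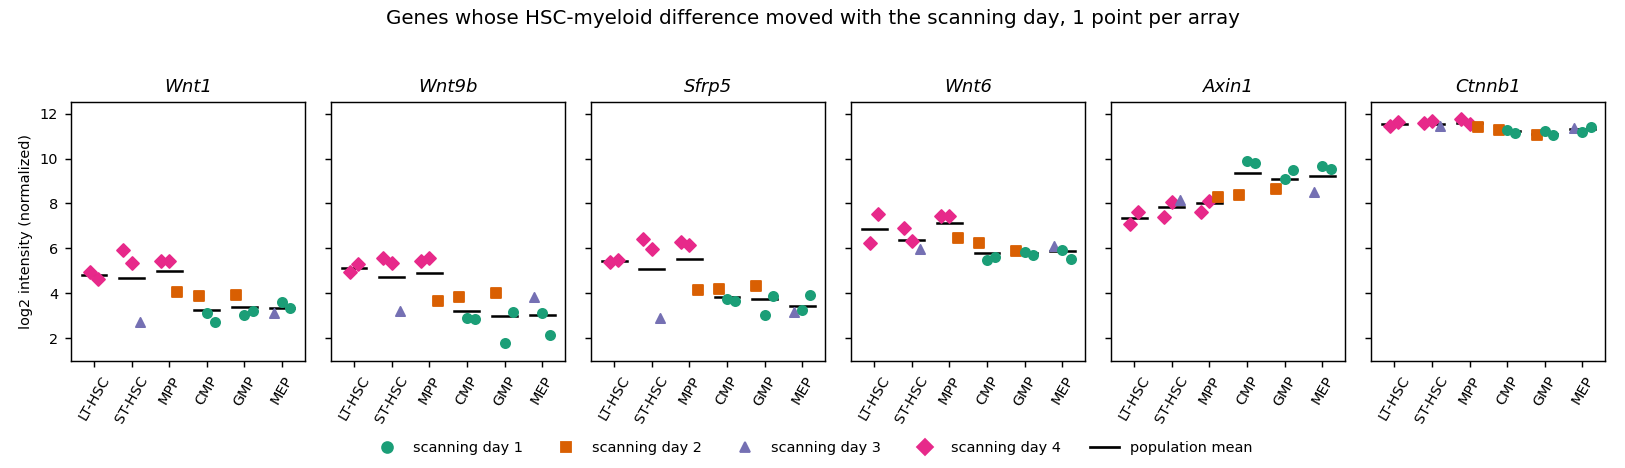
Normalized log2 intensity of Wnt1, Wnt9b, Sfrp5, Wnt6, Axin1 and Ctnnb1 on the 17 arrays, by population, with colour and shape for the 4 scanning days and a line for each population mean. The day 4 arrays, all of HSC subsets, sit above the ST-HSC and MPP arrays of days 2 and 3 for Wnt1, Wnt9b and Sfrp5, and the day 1 arrays, all myeloid, sit highest for Axin1.

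Among the receptors, Fzd6, which is best known for β-catenin-independent and polarity signalling, separated the sorts without overlap. It read 7.42 and 7.23 for LT-HSC, 7.08, 6.99 and 6.98 for ST-HSC, 7.30, 7.66 and 7.20 for MPP, 6.13, 5.88 and 5.76 for CMP, 5.56, 5.24 and 4.65 for GMP and 5.27, 4.70 and 5.55 for MEP. Every HSC array lay above every myeloid array, with CMP highest among the latter. The difference was 1.83 ± 0.15 (SE, adjusted p = 9.92e-07), a 3.55-fold change, while it was 0.81 with normexp and 1.21 in the authors' table, and it was 1.48 ± 0.28 (SE, adjusted p = 0.00788) with scanning day in the fit.

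Fzd1, a receptor of canonical signalling, was highest in MPP and was not above background in MEP. It read 7.38, 7.05 and 6.50 for MPP, 5.15 and 4.89 for LT-HSC, 4.80, 3.27 and 5.15 for ST-HSC, 4.42, 4.09 and 4.55 for CMP and 4.39, 4.26 and 4.98 for GMP. In MEP it read 1.63, 1.66 and 1.62, well above background on no array. MPP lay above all other populations without overlap and MEP below all of them. MPP exceeded ST-HSC by 2.57 ± 0.39 (SE, adjusted p = 0.00237), a 5.94-fold difference that was 0.97 on the log2 scale with normexp and 1.47 in the authors' table, and HSC subsets exceeded myeloid populations by 1.96 ± 0.24 (SE, adjusted p = 2.5e-05). The size of the latter is not measured, as 4 of 9 myeloid arrays were above background. GMP exceeded MEP by 2.91 ± 0.39 (SE, adjusted p = 0.000101), but GMP was above background on 2 of 3 arrays and lay within the MEP detection limits, so no fold is given for it. That call was lost with normexp background correction (0.33, adjusted p = 0.097) and in the authors' table (0.51, adjusted p = 0.0783).

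Fzd4 was low in MEP as well. It read 6.23 and 6.2 for LT-HSC, 6.67, 4.69 and 6.80 for ST-HSC, 5.80, 5.27 and 5.83 for MPP, 4.67, 5.48 and 5.44 for CMP, 5.11, 6.06 and 6.10 for GMP and 2.36, 3.85 and 3.84 for MEP. The 3 MEP arrays, none above background, were the lowest of all 17, and the other 5 populations overlapped. GMP exceeded MEP by 2.41 ± 0.54 (SE, adjusted p = 0.00564), which is at least 2.05-fold when the MEP arrays are set to their detection limits. With normexp background correction the difference was 0.49 (adjusted p = 0.0762), and it was 0.84 (adjusted p = 0.0306) in the authors' table, both under that bound. The difference between HSC subsets and myeloid populations was 1.20 ± 0.33 (SE, adjusted p = 0.0102), and 2.47 ± 0.50 (SE, adjusted p = 0.0110) with scanning day in the fit, but it includes the MEP arrays below background, so its size is not measured.

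Fzd7 showed the opposite order of GMP and MEP. It was above background on all 17 arrays, at 7.01 ± 0.51 (SD, n = 2) for LT-HSC, 7.18 ± 0.27 for ST-HSC, 6.55 ± 0.55 for MPP, 6.02 ± 0.42 for CMP, 5.93 ± 0.40 for GMP and 7.54 ± 0.60 for MEP (SD, n = 3 each). MEP exceeded GMP without overlap, with a GMP minus MEP difference of -1.61 ± 0.37 (SE, adjusted p = 0.00597), which was -0.80 (adjusted p = 0.00459) with normexp. Fzd9 was highest in MPP, at 8.95, 8.34 and 8.70, against 6.99, 6.43 and 7.35 for ST-HSC, 7.50 and 4.81 for LT-HSC, 6.91, 7.15 and 6.63 for CMP, 5.19, 5.21 and 5.36 for GMP and 6.23, 5.78 and 6.33 for MEP. The LT-HSC arrays stood far apart and the lower of them was not above background. With a replicate block, Fzd9 was called in MPP minus ST-HSC (1.74, adjusted p = 0.00198) and in GMP minus MEP (-0.86, adjusted p = 0.0119). With 1 mean per population it was called in neither. The difference between HSC subsets and myeloid populations, 1.16 ± 0.30 (SE, adjusted p = 0.00722), did not pass with scanning day in the fit (1.34 ± 0.66, SE, adjusted p = 0.223), and was 0.71 (adjusted p = 0.00443) without the pooled LT-HSC array.

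Fzd5 and Fzd8 were not called in any comparison with 1 mean per population. Fzd5 was above background on 16 arrays, at 6.12 ± 0.09 (SD, n = 2) for LT-HSC, 4.48 ± 1.16 for ST-HSC, 4.37 ± 0.79 for MPP, 4.87 ± 0.48 for CMP, 4.80 ± 0.39 for GMP and 5.26 ± 0.45 for MEP (SD, n = 3 each). Its LT-HSC difference of 1.69 (adjusted p = 0.0689) was called with scanning days 2 and 3 joined as 1 block, a setting chosen after seeing the data (1.75, adjusted p = 0.0479). The second Fzd5 probe, above background on 13 arrays, gave 0.58 (adjusted p = 0.308) for the same comparison in a fit of single probes. Fzd8 was detected in ST-HSC alone under the criterion above, at 4.92 ± 0.64 (SD, n = 3), with 3.84 ± 1.46 (SD, n = 2) for LT-HSC, 4.06 ± 0.70 for MPP, 4.33 ± 0.61 for CMP, 3.44 ± 0.84 for GMP and 2.62 ± 1.60 for MEP (SD, n = 3 each). Fzd3 was called 0.67 lower in HSC subsets (difference -0.67 ± 0.25, SE, adjusted p = 0.0489) while it was above background on no array, and the sign turned to 0.25 with scaling to the 75th percentile. The call was lost in 12 of the 17 fits that left out 1 array.

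Of the co-receptors, Lrp5 varied, and Lrp6 was called in none of the 4 comparisons with 1 mean per population. Lrp5 read 8.13 and 8.05 for LT-HSC, 9.03, 9.04 and 9.10 for ST-HSC, 9.80, 9.42 and 9.63 for MPP, 9.09, 7.81 and 8.09 for CMP, 9.23, 8.53 and 8.54 for GMP and 7.88, 6.84 and 7.12 for MEP. LT-HSC lay below every ST-HSC and MPP array, by -1.25 ± 0.33 (SE, adjusted p = 0.0334), and MEP lay below every GMP array, with a GMP minus MEP difference of 1.49 ± 0.33 (SE, adjusted p = 0.00453). With slide as a random block the LT-HSC difference was not called (-1.12, adjusted p = 0.144). The LT-HSC difference missed the threshold in 7 of the 17 fits that left out 1 array, and was -1.21 (adjusted p = 0.236) without the unnumbered LT-HSC array. HSC subsets and myeloid populations overlapped, and their difference of 0.80 ± 0.20 (SE, adjusted p = 0.00543) fell to 0.23 ± 0.17 (SE, adjusted p = 0.467) with scanning day in the fit. Lrp6 was at 4.10 ± 0.30 (SD, n = 2) for LT-HSC, 4.66 ± 0.83 for ST-HSC, 4.98 ± 0.47 for MPP, 5.15 ± 0.45 for CMP, 4.89 ± 0.26 for GMP and 5.14 ± 0.67 for MEP (SD, n = 3 each).

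Sfrp4 was the antagonist with the clearest pattern, and its highest population was MEP. It read 8.77, 8.17 and 8.19 for MEP, 6.32 and 4.10 for LT-HSC, 3.70, 2.42 and 3.74 for ST-HSC, 3.78, 3.70 and 2.55 for MPP, 3.55, 5.06 and 4.01 for CMP and 2.15, 2.23 and 2.08 for GMP. All MEP arrays lay above the other 14, and all GMP arrays, none above background, lay below them. The GMP minus MEP difference was -6.23 ± 0.56 (SE, adjusted p = 2.93e-06), so that MEP exceeded GMP at least 17.5-fold when the GMP arrays are set to their detection limits. With normexp (-2.08) and in the authors' table (-3.17) the difference was called but lay under that bound. On day 1 alone the difference was -6.03, with 2 arrays of each population. The difference between HSC subsets and myeloid populations, -0.96 ± 0.34 (SE, adjusted p = 0.0367), missed the threshold in 8 of the 17 fits that left out 1 array and was -0.59 (adjusted p = 0.144) without the unnumbered LT-HSC array. It was also not called with scaling to the 75th percentile (-0.28, adjusted p = 0.585) or with scanning day in the fit (-1.31, adjusted p = 0.236), and only 4 of 8 HSC and 4 of 9 myeloid arrays were above background. Without both LT-HSC arrays the difference was -1.60 (adjusted p = 0.00103).

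Of the other antagonists, Sfrp5 was detected in MPP and was above background on 8 of the 17 arrays. It followed the scanning day, reading 5.41 to 6.44 on day 4 and 2.91 to 4.34 on days 1 to 3, with population means of 5.45 ± 0.06 (SD, n = 2) for LT-HSC, 5.11 ± 1.92 for ST-HSC, 5.53 ± 1.19 for MPP, 3.85 ± 0.28 for CMP, 3.75 ± 0.66 for GMP and 3.46 ± 0.42 for MEP (SD, n = 3 each). Its difference of 1.68 ± 0.47 (SE, adjusted p = 0.0118) between HSC subsets and myeloid populations turned to -0.42 ± 0.29 (SE, adjusted p = 0.405) with scanning day in the fit, with 2 of 9 myeloid arrays above background. Sfrp1, Sfrp2 and the 4 Dkk genes were detected in no population.

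Inside the cell, the transcription factors of the Tcf and Lef family distinguished the populations. Tcf7, which encodes TCF-1, known from T-cell development and the self-renewal of stem cells, read 8.40 and 8.65 for LT-HSC, 5.45, 4.67 and 6.38 for ST-HSC, 3.6, 3.44 and 4.16 for MPP, 5.04, 6.19 and 5.59 for CMP, 3.97, 3.79 and 3.66 for GMP and 7.32, 6.24 and 6.21 for MEP. Both LT-HSC arrays were above the other 15, while MPP and GMP held the lowest values, GMP being above background on no array. LT-HSC exceeded the mean of ST-HSC and MPP by 3.91 ± 0.42 (SE, adjusted p = 0.000119), and by 4.24 on the arrays of day 4 alone, by 1.91 with normexp and by 2.62 in the authors' table. The second Tcf7 probe, above background on 11 arrays, gave 1.67 (adjusted p = 0.0456) for the same comparison in a fit of single probes. MEP exceeded GMP, with a GMP minus MEP difference of -2.78 ± 0.42 (SE, adjusted p = 0.000285), at least 4.96-fold at the detection limits of the GMP arrays, although the difference was -0.88 with normexp and -1.42 in the authors' table, both under that bound. MPP lay below ST-HSC by -1.77 ± 0.42 (SE, adjusted p = 0.0441), a call that was lost in 12 of the 17 fits without 1 array, with normexp (-0.43, adjusted p = 0.291) and in the authors' table (-0.79, adjusted p = 0.124).

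T-cell transcripts were set beside the Tcf7 values. The 7 T-cell markers had no common order across the HSC subsets. Cd3d (6.71, 5.06 and 4.01 for LT-HSC, ST-HSC and MPP), Cd3g (6.14, 4.29 and 3.01), Cd2 (4.43, 3.77 and 3.1) and Cd3e (7.17, 6.54 and 6.53) had their means in the same order as Tcf7, whereas Lck (9.82, 8.81 and 10.78), Cd5 (7.95, 6.52 and 8.59) and Tcrb-J (3.26, 4.05 and 5.87) were highest in MPP. The summed log2 intensity of the list was 11.11 to 11.29 in MPP, most of it from Lck, 10.52 to 10.62 in LT-HSC, 9.52 to 9.65 in ST-HSC, 9.11 to 9.86 in CMP, 7.60 to 7.77 in GMP and 8.26 to 8.84 in MEP. Of these markers, Cd3g was called higher in LT-HSC than in ST-HSC and MPP (2.49, adjusted p = 0.0374) and Tcrb-J lower (-1.70, adjusted p = 0.0014). Tcrb-J was above background on neither LT-HSC array and Cd3g on 1 of 2. All 5 MEP markers, whose levels are given with Wnt10a, were called higher in LT-HSC as well (median difference 3.33), and Tcf7 was second highest in MEP. The part of the T-cell and MEP markers in the Tcf7 difference was not tested.

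Tcf7l2, which encodes TCF-4, was detected in all 6 populations and was the gene with the smallest F-test p (adjusted p = 1.86e-06). It read 8.98 and 8.60 for LT-HSC, 8.57, 8.34 and 8.51 for ST-HSC, 9.78, 9.45 and 8.98 for MPP, 7.11, 7.13 and 6.77 for CMP, 5.36, 6.0 and 5.34 for GMP and 7.37, 6.36 and 6.46 for MEP. All 8 HSC arrays lay above all 9 myeloid arrays, and GMP was lowest. HSC subsets exceeded myeloid populations by 2.46 ± 0.17 (SE, adjusted p = 2.61e-07), a 5.49-fold difference, by 1.43 with normexp, by 1.11 with the mean of all probes and by 1.90 ± 0.25 (SE, adjusted p = 0.0012) with scanning day in the fit. GMP minus MEP was -1.16 ± 0.29 (SE, adjusted p = 0.00981), but it was not called with normexp (-0.45, adjusted p = 0.0657) or with the mean of all probes (-0.16, adjusted p = 0.774). The other probes for Tcf7l2, dimmer and above background on 12 and 5 arrays, gave 0.39 and 0.48 between the sorts, neither of them called.

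Lef1 was above background on 6 of the 17 arrays, namely 1 of 2 LT-HSC, 2 of 3 ST-HSC, 2 of 3 MPP and 1 of 3 MEP arrays. It read 5.76 and 4.92 for LT-HSC, 3.00, 4.19 and 3.71 for ST-HSC, 4.35, 3.01 and 3.34 for MPP, 2.25, 3.49 and 3.25 for CMP, 2.42, 2.65 and 3.57 for GMP and 6.11, 5.12 and 4.53 for MEP. MEP exceeded GMP without overlap, with a GMP minus MEP difference of -2.37 ± 0.51 (SE, adjusted p = 0.00419), although 1 of 3 MEP arrays and no GMP array was above background, so that the size of the difference is not measured. LT-HSC and MEP were the populations with the highest means of Tcf7, Lef1 and Sfrp4. On the unnumbered LT-HSC array, however, Lef1 (4.92) and Sfrp4 (4.10) were below its limit of 5.86.

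The promoters of Lef1 and Fzd1 are shown because these genes moved in opposite directions between GMP and MEP and both carry the core of the motif bound by Tcf and Lef factors. RefSeq start sites on GRCm38.p6 were matched for 30 of the 45 genes, 39 start sites in all. The 250 bases before each start were searched for CTTTGA and its reverse complement TCAAAG. A match was found before 5 of the 39 start sites (12.8%), those of Lef1, Fzd1, Wnt5b, Wnt11 and Dkk1, and before 13.8% of all 32851 start sites of the table. Capitals mark the matches. Lef1 is shown at the 1 of its 4 start sites that has a match, which lies downstream of the other 3.
Fzd1 (chr5:4758217-4758466, minus strand): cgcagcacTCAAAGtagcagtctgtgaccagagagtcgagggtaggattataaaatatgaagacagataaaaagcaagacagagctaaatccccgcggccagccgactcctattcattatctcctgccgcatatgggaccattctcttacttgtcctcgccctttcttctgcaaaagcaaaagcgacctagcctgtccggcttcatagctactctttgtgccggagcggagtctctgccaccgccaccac
Lef1 (chr3:131156044-131156293, plus strand): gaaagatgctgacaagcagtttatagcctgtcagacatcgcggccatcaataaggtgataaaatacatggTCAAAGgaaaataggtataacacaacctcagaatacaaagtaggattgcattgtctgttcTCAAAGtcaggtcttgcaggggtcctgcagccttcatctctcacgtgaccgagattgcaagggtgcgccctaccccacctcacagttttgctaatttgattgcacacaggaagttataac

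**Figure D3:**
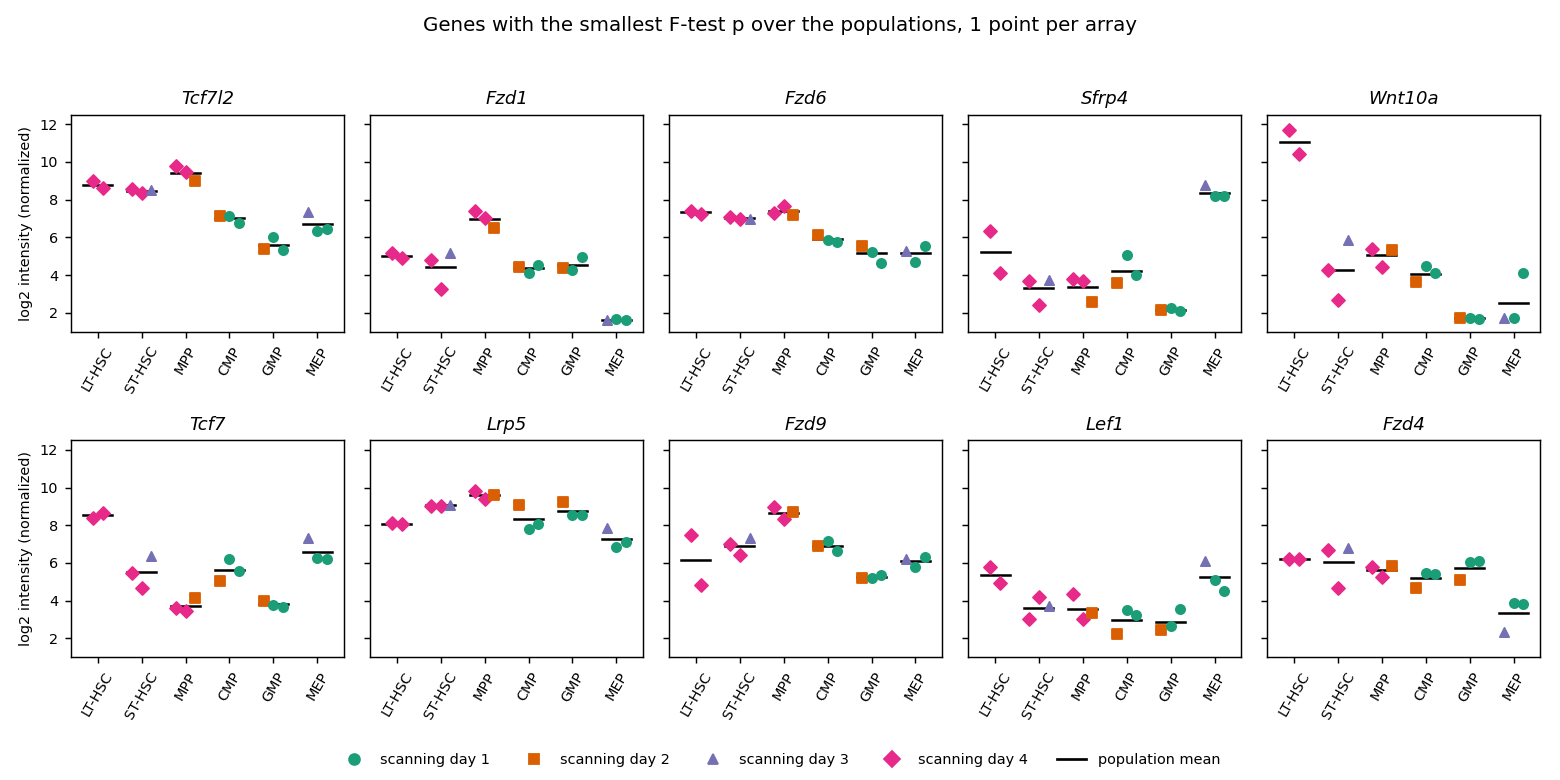
Normalized log2 intensity on each of the 17 arrays, by population, for the 10 named genes with the smallest F-test p, with colour and shape for the 4 scanning days and a line for each population mean. Wnt10a and Tcf7 are highest on the LT-HSC arrays, Sfrp4 on the MEP arrays and Fzd1 on the MPP arrays, and Tcf7l2 and Fzd6 separate the HSC subsets from the myeloid populations.

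Ctnnb1 transcripts were abundant and, on the brightest probe, even. The means were 11.53 ± 0.10 (SD, n = 2) for LT-HSC, 11.56 ± 0.12 for ST-HSC, 11.56 ± 0.18 for MPP, 11.23 ± 0.08 for CMP, 11.11 ± 0.11 for GMP and 11.31 ± 0.10 for MEP (SD, n = 3 each). Although every HSC array, at 11.41 to 11.76, lay above every myeloid array, at 11.04 to 11.39, the difference was 0.33 ± 0.08 (SE, adjusted p = 0.00401), a 1.26-fold change. It was 0.15 ± 0.13 (SE, adjusted p = 0.54) with scanning day in the fit and 0.25 (adjusted p = 0.0907) with scaling to the 75th percentile. The other Ctnnb1 probes, also above background on all 17 arrays, gave 0.07 (adjusted p = 0.707) and 0.85 (adjusted p = 0.0136) in a fit of single probes.

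Axin1 was lower in HSC subsets and Axin2 was not detected. Axin1 was at 7.35 ± 0.36 (SD, n = 2) for LT-HSC, 7.86 ± 0.40 for ST-HSC, 8.0 ± 0.35 for MPP, 9.36 ± 0.84 for CMP, 9.07 ± 0.42 for GMP and 9.24 ± 0.65 for MEP (SD, n = 3 each), and all HSC arrays lay below all myeloid arrays. The difference of -1.48 ± 0.25 (SE, adjusted p = 0.000429) was -0.42 ± 0.29 (SE, adjusted p = 0.404) with scanning day in the fit. Within day 2, MPP differed from the mean of CMP and GMP by -0.22, and within day 3, ST-HSC differed from MEP by -0.35. The day 1 arrays, all myeloid, read 9.09 to 9.89 and the day 4 arrays, all of HSC subsets, 7.09 to 8.09. Axin2, a widely used target gene of the pathway, had means between 1.73 ± 0.06 for MPP and 2.42 ± 0.97 for ST-HSC (SD, n = 3), with 1.86 ± 0.10 (SD, n = 2) for LT-HSC, 2.37 ± 0.84 for CMP, 2.21 ± 0.57 for GMP and 2.34 ± 0.78 for MEP (SD, n = 3 each), all below the detection limits of the arrays.

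**Figure D4:**
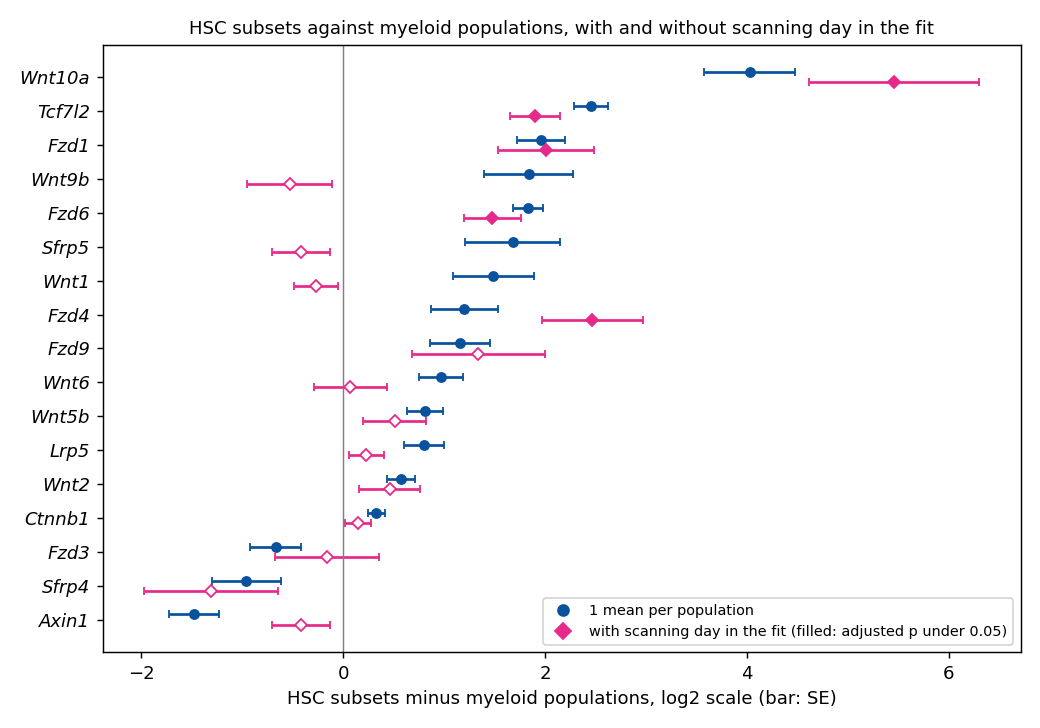
Difference between HSC subsets and myeloid populations on the log2 scale, with its SE, for the 17 genes called, with 1 mean per population (circles) and with scanning day added to the fit (diamonds, filled where the adjusted p is under 0.05). Wnt10a, Tcf7l2, Fzd1, Fzd6 and Fzd4 keep filled diamonds, whereas those of Wnt1, Wnt9b and Sfrp5 cross to the other side of 0.

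In the comparison of the sorts as a whole, 5 of the 17 genes called remained called with scanning day in the fit, namely Wnt10a, Fzd1, Fzd4, Fzd6 and Tcf7l2, and Wnt10b (higher in HSC subsets) and Wnt8b (lower in HSC subsets) were added, although Wnt8b was above background on 4 of 8 HSC arrays and on 0 of 9 myeloid arrays, so that the size of its difference is not measured. Over all genes the share called fell from 40.7% to 15.0%. Within a sort, the genes called were also called with scanning day in the fit, while further genes were added. All 8 genes called between GMP and MEP remained (9 called, against 24.5% of all genes), as did all 3 in LT-HSC (7 called, against 15.3%) and both between MPP and ST-HSC (3 called, against 4.55%). Added in LT-HSC were Wnt11, Lef1 (1.70, adjusted p = 0.049), Wnt1 (-0.73, adjusted p = 0.0326) and Fzd10 (-1.41, adjusted p = 0.0493). Tcf7l2 was added in MPP minus ST-HSC (1.23, adjusted p = 0.014) and Dkk3 in GMP minus MEP (-1.52, adjusted p = 0.00994). Fzd10 was above background on no LT-HSC array and Dkk3 on no GMP or MEP array.

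**Figure D5:**
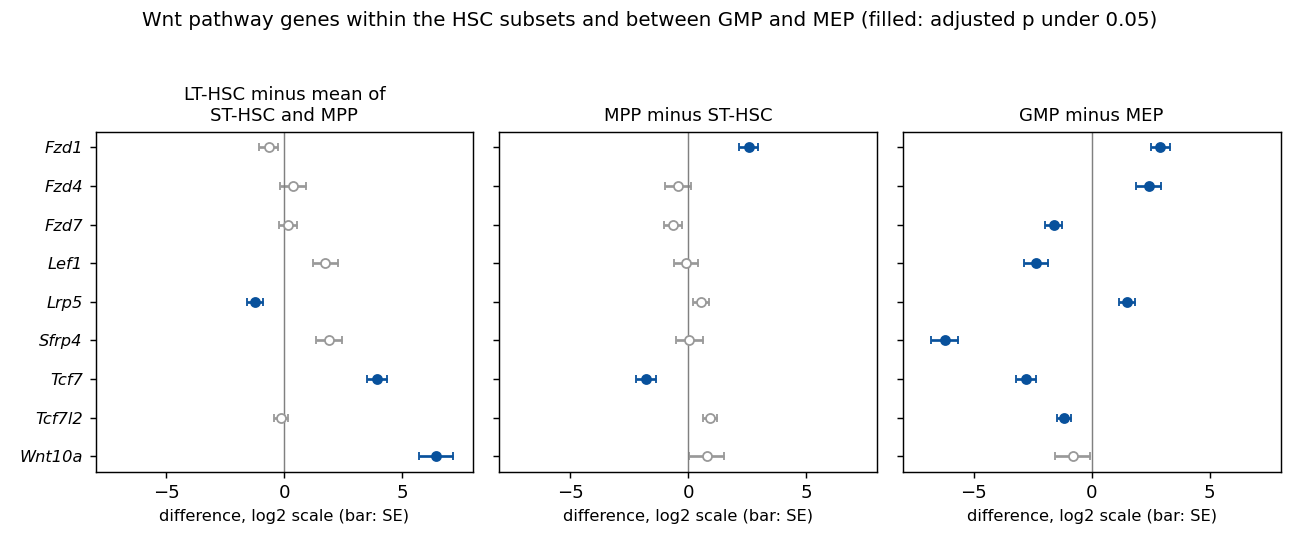
Differences on the log2 scale, with their SE, for the 9 genes called in at least 1 comparison within a sort, with filled points where the adjusted p is under 0.05. Wnt10a and Tcf7 lie to the right in LT-HSC, Fzd1 to the right and Tcf7 to the left in MPP against ST-HSC, and Sfrp4 farthest to the left in GMP against MEP.

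Other genes of the pathway were read from lists fixed by name, and are given with their counts in the comparison of HSC subsets with myeloid populations, for which 21.7% of all genes were higher and 19.1% lower. Of 13 genes for Wnt secretion and non-canonical receptors, 7 were higher, 1 was lower and the median difference was 0.37. Gpr177, now Wls, which carries Wnt ligands to the cell surface, was higher by 1.42 ± 0.15 (SE, adjusted p = 9.87e-06) and stood at 7.06 ± 0.37 (SD, n = 3) for MEP against 9.37 to 10.61 in the other population means. Vangl1 was higher by 1.31 (adjusted p = 9.54e-05), Ryk, a Wnt-binding receptor, by 0.91 (adjusted p = 0.00216) and Vangl2 by 0.62 (adjusted p = 0.00231). Ryk was at 9.45 ± 0.11 (SD, n = 3) for MEP, 9.09 ± 0.82 (SD, n = 2) for LT-HSC and 4.45 ± 0.44 (SD, n = 3) for GMP. With scanning day in the fit, the differences of Vangl1 and Ryk did not pass (adjusted p = 0.0954 and 0.486).

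Of 17 other secreted or surface modulators, 3 were higher, 1 was lower and the median was 0.31. Dkkl1, a Dkk-like secreted protein, was higher by 2.37 ± 0.12 (SE, adjusted p = 1.25e-08). Its mean in MEP, 11.51, was close to that in ST-HSC, 11.42, whereas CMP was at 9.33 and GMP at 7.44. Kremen1, a receptor for Dkk proteins, was higher by 0.98 (adjusted p = 0.000114) and Znrf3, a ligase that removes Frizzled receptors, by 0.82 (adjusted p = 0.026). Rnf43, a ligase of the same kind, was lower, with a difference of -2.85 ± 0.29 (SE, adjusted p = 6.4e-06), at 9.42 ± 0.29 (SD, n = 3) for GMP and 4.11 ± 1.07 (SD, n = 3) for MPP. It was above background on 2 of 3 MPP arrays, so that level rests in part on a reading below background. Dkkl1 and Rnf43 also passed with scanning day in the fit, at 2.24 and -2.12, and Kremen1 and Znrf3 did not (adjusted p = 0.173 and 0.998).

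Of 21 cytoplasmic transducers and components of the destruction complex, 7 were higher, 7 were lower and the median was 0.25. Daam1, a formin of the non-canonical branch, was lower (-1.23 ± 0.13, SE, adjusted p = 7.13e-06), as were Btrc, which targets β-catenin for degradation (-2.38, adjusted p = 4.75e-05), and Gsk3b, the kinase that marks it (-2.29, adjusted p = 7.36e-05). Neither Btrc nor Gsk3b was above background on an LT-HSC array, so the size of these differences is not measured. In contrast, Fbxw11, a paralog of Btrc, was higher by 0.82 (adjusted p = 0.000126). Of these 4 genes, Daam1 alone passed with scanning day in the fit, at -1.32 (adjusted p = 0.00424). Of 19 nuclear partners of β-catenin, 6 were higher, 5 were lower and the median was 0.08. Among them the corepressors Tle2 and Tle4 were higher by 2.57 (adjusted p = 1.03e-08) and 1.20 (adjusted p = 1.8e-05), Ctnnbip1, an inhibitor of β-catenin binding, by 1.08 (adjusted p = 7.71e-06) and Hhex, a homeobox repressor, by 1.22 (adjusted p = 1.62e-05). With scanning day in the fit Tle4 did not pass (0.65, adjusted p = 0.053) and the other 3 did.

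Of 13 genes reported as targets of the pathway, 5 were higher, 1 was lower and the median was 0.46. Id2 was higher by 1.86 (adjusted p = 3.79e-06), Ccnd1 by 0.92 (adjusted p = 0.000139), Jun by 1.07 (adjusted p = 0.000174) and Cd44 by 0.56 (adjusted p = 0.00593). Id2 and Ccnd1 also passed with scanning day in the fit, at 1.60 and 0.87, and Jun and Cd44 did not (adjusted p = 0.319 and 0.35). These genes respond to many pathways besides this one.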

How the data were processed

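Labelled RNA was hybridized to 17 Agilent 1-colour mouse arrays. The authors deposited the scanner intensity of each spot (Agilent processed signal, background-subtracted by the scanner software) and a table of log2 values, used here as an alternative. The log2 intensities of all 45018 spots were quantile-normalized (limma 3.58.1, R 4.3.3), 1639 control spots were left out, 161 probe values were missing after outlier flags, and spots were averaged to 41174 probes and the brightest probe of 28090 gene names. One mean per population was fitted with lmFit and eBayes, with Benjamini-Hochberg adjustment over all genes at 0.05. A level limited by background was bounded by the lowest signal well above background on each array. No columns belonged to other samples (0).

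The genes and lists were chosen with earlier results of these data known. Named with values were the co-receptors, the intracellular genes and each Wnt, Fzd, Dkk or Sfrp gene detected in at least 1 population, with values by array for the 10 with the smallest F-test p. The other lists name the 4 genes with the smallest adjusted p between the sorts. A planned permutation test of the number of genes detected per array was not made, since that number sums over chosen genes. Alternatives were 75th percentile scaling, normexp, the authors' table, scanning day or slide as a block, a replicate block, the mean of all probes, a filter on dim probes, other detection rules, and leaving out arrays. The scripts were tested on simulated data. Precision is limited by the number of arrays.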

Additional observations from a re-analysis of the deposited data

How the results depend on the processing

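Between HSC subsets and myeloid populations, 17 genes were called, against 25 with 75th percentile scaling, 7 with scanning day in the fit, 7 with days 2 and 3 joined (chosen after seeing the data) and 11 with slide as a random block. With scanning day in the fit and with joined days, the differences reversed to -0.27 and -0.50 for Wnt1, -0.53 and -0.56 for Wnt9b and -0.42 and -0.62 for Sfrp5, and that of Fzd3 reversed to 0.25 with 75th percentile scaling. In LT-HSC, 3 genes were called, against 5 with 75th percentile scaling, the authors' table, joined days or the mean of all probes, 6 with normexp and 7 with scanning day. Between MPP and ST-HSC, 2 were called, against 1 with the mean of all probes, and between GMP and MEP 8, against 5 with normexp. The cause was not tested. Over all genes, the share called is given above for scanning day in the fit only. For the other settings, and with arrays left out, a change in these genes cannot be told from one in the whole array.

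The genes detected in LT-HSC, ST-HSC, MPP, CMP and MEP numbered 23, 37, 33, 24 and 16 when 1 array sufficed. The methods' t-test against dark control spots, at their threshold of 0.01, gave 30 in ST-HSC, 23 in CMP and 21 in MEP, and 30 in ST-HSC and 21 in MEP after Benjamini-Hochberg adjustment. A common limit for all arrays, added after seeing the data, changed the order of populations, with 12 for LT-HSC, 9 for MPP, 8 for ST-HSC, 7 for MEP, 5 for CMP and 3 for GMP.

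With each array left out in turn, 13 to 19 genes passed the F-test, 15 to 18 differed between the sorts, 2 to 4 in LT-HSC, 1 to 2 between MPP and ST-HSC and 8 to 9 between GMP and MEP. Detected genes ranged over 14 to 23 in LT-HSC, 18 to 26 in ST-HSC, 21 to 29 in MPP, 15 to 18 in CMP, 13 to 14 in GMP and 11 to 13 in MEP, and the difference in genes per array over 8.32 to 10.9.

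With the replicate block, 15 genes were called between the sorts (13 of them among the 17), 3 between MPP and ST-HSC and 9 between GMP and MEP. The share of all genes called is not given for this block. The pooled LT-HSC array was the only array with its label, so LT-HSC values under this block rest on the unnumbered array alone. The block called Lrp6 lower in HSC subsets (-0.56, adjusted p = 0.0267). It also called Fzd9 between MPP and ST-HSC (1.74, adjusted p = 0.00198) and between GMP and MEP (-0.86, adjusted p = 0.0119), and Wnt10b between the sorts (2.23, adjusted p = 0.0123). The LT-HSC differences were -1.6 for Lrp6, 2.19 for Fzd5, -3.2 for Fzd9, 2.44 for Dkk4 and 1.68 for Wnt16. Dkk4 and Wnt16 were above background on no array. On the unnumbered LT-HSC array Lrp6 read 3.89 and Fzd9 4.81, below its limit of 5.86. Deviations of same-numbered arrays correlated at 0.131 to 0.531 within a scanning day (8 pairs) but at -0.0649 to 0.0219 across days (6 pairs), so the numbers were not taken as pairs in the main fit. All pairs within a day were also within a sort, so comparisons within a sort depend on this choice. The dim LT-HSC array limits what can be detected in that population.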

Other observations

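Probes named Tcf3 in the files carried an accession that RefSeq pairs with Tcf7l1, a repressor of the Tcf family, and were therefore kept apart from the 45 genes. The brighter probe read 7.75 and 6.32 in LT-HSC, 6.65, 6.75 and 7.05 in ST-HSC, 7.73, 7.58 and 7.98 in MPP, 5.68, 4.24 and 4.09 in CMP, 6.62, 5.78 and 5.21 in GMP and 3.46, 1.68 and 1.67 in MEP. It was above background on no MEP array, and the HSC and myeloid arrays overlapped. HSC subsets exceeded myeloid populations by 2.93 ± 0.34 (SE, adjusted p = 1.58e-05), a difference whose size is not measured because 5 of 9 myeloid arrays were above background, and on these normalized values GMP exceeded MEP at least 2.21-fold (adjusted p = 0.000328).

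Between GMP and MEP, Ryk (-5.01, adjusted p = 1.9e-07), Dkkl1 (-4.06, adjusted p = 2.32e-08) and Vangl1 (-3.35, adjusted p = 3.54e-06) were lower in GMP, where Ryk was above background on 2 of 3 arrays. All 3 were above background on every MEP array.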
